A study of Arabidopsis thaliana with 4 samples.

Results

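The IQD and TRM genes of Arabidopsis thaliana encode 2 families of proteins that sit on or are brought to microtubules. Members were the probe sets that name a single gene whose symbol is IQD or TRM followed by digits, and 30 genes met that rule among 13350 named genes and 22746 probe sets. They were 15 IQD genes, 14 TRM genes annotated as TON1 Recruiting Motif genes, and TRM82. TRM82 (AT1G03110) is annotated as a tRNA modification gene, so its symbol and not its family matches the rule. It is described apart, and the counts below cover the other 29 genes. Each gene had 1 probe set. The annotation writes IQD15, IQD21, IQD32 and IQD33 in lower case.

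The arrays profiled seedlings of gl1, ttg1 and gl3 egl3, mutants without leaf hairs (trichomes), and of wild type, with 1 array per genotype and total RNA throughout. The mutated genes encode parts of a complex that sets trichome fate, in which a MYB factor (GL1) and bHLH factors (GL3 and EGL3) work with the WD40 protein TTG1. Plants of ttg1, gl3 egl3 and wild type were 20 days old per the labels, which state no age for gl1. They state that only green parts were taken for gl1, ttg1 and wild type. All plants were kept at 22 °C in long days (16 h light, 8 h dark). The labels name the Landsberg erecta (Ler) wild type beside ttg1 and gl3 egl3, and no accession for gl1 or for the wild-type array itself, so accession and genotype cannot be told apart. The sample title gives the double mutant as gl3egl3, and the series text names another second gene. The mutant alleles are not given. The comparison was meant to find transcripts that trichomes hold more of.

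IQD proteins carry the IQ67 domain, a run of calmodulin-binding motifs, and many of them label microtubules, the cell membrane or the nucleus. They are regarded as scaffolds that tie calcium signals, read by calmodulin, to the cytoskeleton and to kinesin light chain-related partners. TRM proteins share short motifs, 1 of which binds TON1, a protein needed for ordered cortical microtubules and for the preprophase band that marks the plane of division. Through TON1 and TON2, a regulatory subunit of protein phosphatase 2A, they act in cell shape and division, and trichome branching itself depends on microtubule order.

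Values are log2 signals from the authors' RMA table after quantile normalization between the 4 arrays. Before it, the typical probe set lay above its wild-type value, with medians of 0.32 for gl1, 0.30 for ttg1 and 0.63 for gl3 egl3. The deposited SD over probe sets was 2.38 in gl1, 2.34 in ttg1, 2.01 in gl3 egl3 and 2.41 in wild type. Every deposited wild-type value was a multiple of 0.005 and 0% of the others were, so that column was written differently and every difference below rests on it. It could hold 1 array or an average of several, which the labels do not settle. It is called an array here, and an average would vary less than the limma fits assume. Green tissue was represented by RCA, Rubisco activase, at 12.21 in gl1, 12.23 in ttg1, 12.30 in gl3 egl3 and 12.19 in wild type. It was the only named gene of 12 green leaf markers. In such mixed tissue, fewer cells of a type and less RNA per cell cannot be told apart.

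A probe set was tested where its highest value over the 4 arrays reached 6.26, the median of all values. Of the 15 IQD genes 7 passed, and of the 14 TRM genes 5. IQD23 and IQD24 passed by their highest value only, while the means of the other 10 also lay above that level. The remaining 17 genes, 8 IQD and 9 TRM, had low signals in every array. Signals of different probe sets are not comparable as amounts, so the order of genes by level was not read.

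**Figure D1:**
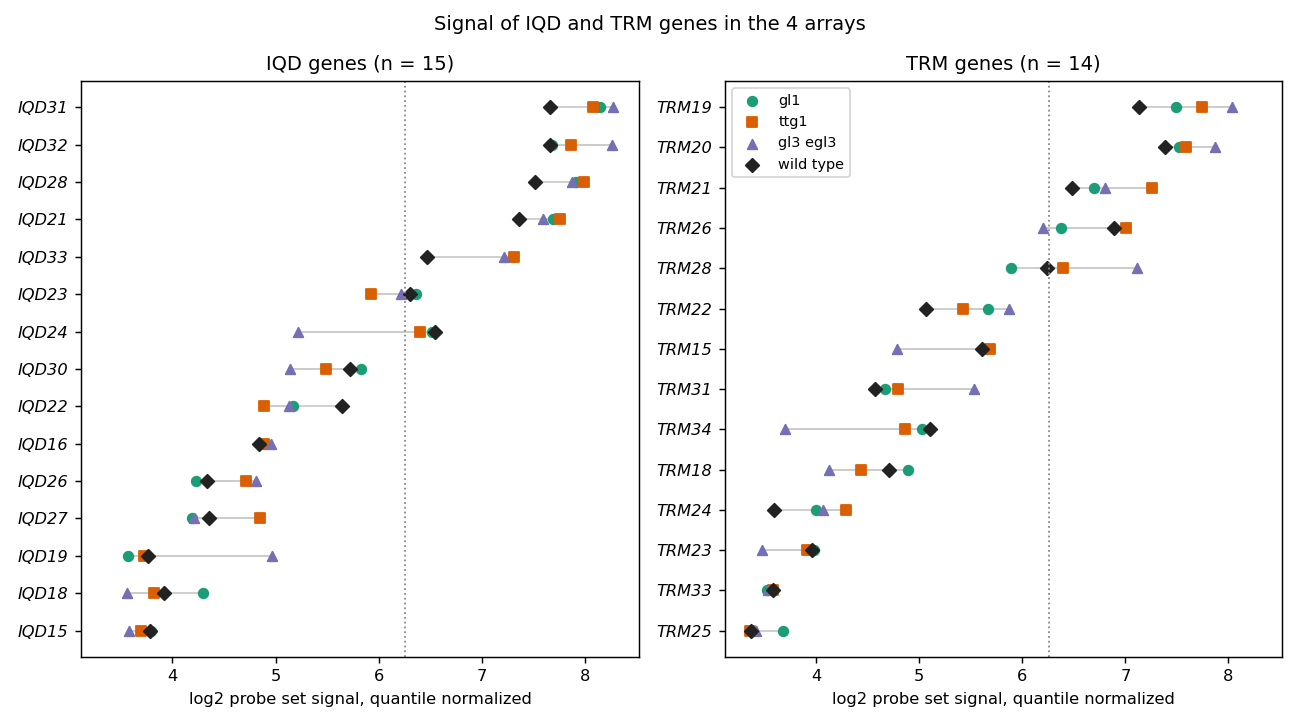
Log2 probe set signal (horizontal axis, quantile normalized) of 15 IQD genes (left) and 14 TRM genes (right) in the 4 arrays, 1 point per array, with genes ordered by mean signal and the dotted line at the level filter of 6.26. In IQD33, IQD31, IQD28, IQD21, IQD32, TRM19, TRM20 and TRM21 all 3 mutant points lie right of wild type, and IQD24 and TRM34 have the gl3 egl3 point far to the left.

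Among the IQD genes with clear signal, IQD33 (AT5G35670) stood furthest from wild type in all 3 mutants together. It was at 7.30 in gl1, 7.31 in ttg1, 7.21 in gl3 egl3 and 6.47 in wild type. The 3 mutants lay within a narrow band above the wild-type array. The mean difference was 0.81 ± 0.05 (log2, SD, n = 3 mutants), or 1.75-fold. The SD holds no error of the wild-type measurement, common to the 3 differences. limma gave IQD33 an unadjusted p of 0.016 and an adjusted p of 0.86 over the probe sets past the level filter described above. With no such filter the adjusted p was 0.99, and in the deposited values the difference was 1.21.

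IQD31 (AT1G74690) was at 8.15 in gl1, 8.08 in ttg1, 8.28 in gl3 egl3 and 7.67 in wild type. Its mean difference was 0.50 ± 0.10 (log2, SD, n = 3 mutants). Again all 3 mutants lay above wild type, and no single mutant stood out. IQD28 (AT1G14380) was at 7.92 in gl1, 7.99 in ttg1, 7.88 in gl3 egl3 and 7.52 in wild type, a mean difference of 0.41 ± 0.06. IQD21 (AT3G49260) was at 7.69, 7.76 and 7.59 in gl1, ttg1 and gl3 egl3, against 7.37 in wild type, a mean difference of 0.31 ± 0.08. IQD33, IQD31, IQD28 and IQD21 lay above the lone wild-type array in all 3 mutants. So did 30.7% of probe sets with a mean past the filter level. limma called none of these IQD genes (adjusted p = 0.86 each).

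IQD32 (AT1G19870) had the same direction with a graded pattern. It was at 7.69 in gl1, 7.87 in ttg1, 8.27 in gl3 egl3 and 7.66 in wild type. The gl1 array was close to wild type and the gl3 egl3 array carried most of the mean difference of 0.28 ± 0.30 (log2, SD, n = 3 mutants).

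IQD24 (AT5G07240) went the other way in a single genotype. It was at 6.52 in gl1, 6.40 in ttg1, 5.22 in gl3 egl3 and 6.55 in wild type. The gl3 egl3 array stood apart by -1.33 on the log2 scale, or 2.51-fold below wild type, and the other 3 arrays lay close together. As deposited, the same difference was -0.61, short of 2-fold, and cyclic loess gave -1.04. IQD23 (AT5G62070), at 6.36 in gl1, 5.93 in ttg1, 6.21 in gl3 egl3 and 6.31 in wild type, had its lowest value in ttg1.

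The 8 IQD genes below the level filter include IQD16 and IQD18. IQD18 belongs to a group of IQD proteins linked to auxin and calcium signals at microtubules. IQD16, known also as ABS6, acts on cortical microtubules and cell shape together with katanin, the microtubule-severing enzyme. IQD16 was at 4.89 in gl1, 4.89 in ttg1, 4.95 in gl3 egl3 and 4.84 in wild type. Its 4 arrays spanned 0.12, the narrowest range of the family. IQD18 was at 4.29, 3.82 and 3.56 in gl1, ttg1 and gl3 egl3, against 3.92 in wild type.

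IQD19 (AT4G14750) was at 3.57 in gl1, 3.73 in ttg1, 4.96 in gl3 egl3 and 3.77 in wild type. Only the gl3 egl3 array was raised, by 1.20 (log2), or 2.29-fold. Low values of that array ran higher as deposited, with a deposited 25th percentile of 4.93 in gl3 egl3 against 3.75 in wild type. The IQD19 difference there was 2.13 as deposited and 0.98 with cyclic loess, just under 2-fold. The part of the raised low end in it was not tested.

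IQD22 (AT4G23060) was the low-signal IQD gene below wild type in all 3 mutants, at 5.17 in gl1, 4.88 in ttg1, 5.13 in gl3 egl3 and 5.65 in wild type. The mean difference was -0.59 ± 0.16 (log2, SD, n = 3 mutants). In the deposited values its differences were -0.06 for gl1, -0.40 for ttg1 and 0.29 for gl3 egl3, so the direction in gl3 egl3 depended on scaling. The other low-signal members, IQD15, IQD26, IQD27 and IQD30, had mean differences of -0.09, 0.25, 0.07 and -0.24.

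Of the 5 TRM genes with clear signal, TRM19 (AT3G53540) had the largest mean difference. It was at 7.49 in gl1, 7.75 in ttg1, 8.03 in gl3 egl3 and 7.13 in wild type. All 3 mutants lay above wild type, with gl3 egl3 highest. The mean difference was 0.63 ± 0.27 (log2, SD, n = 3 mutants), or 1.54-fold, with a limma adjusted p of 0.86.

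TRM21 (AT5G43880), a member also described as promoting flavonoid metabolism at the level of translation, was highest in ttg1. It was at 6.69 in gl1, 7.26 in ttg1, 6.80 in gl3 egl3 and 6.48 in wild type, a mean difference of 0.43 ± 0.30. TRM20 (AT4G28760) was at 7.52 in gl1, 7.59 in ttg1, 7.87 in gl3 egl3 and 7.38 in wild type. Its largest difference was 0.49, in gl3 egl3.

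TRM28 (AT5G03670) and TRM26 (AT2G17550) differed in sign between mutants. TRM28 was at 5.89 in gl1, 6.40 in ttg1, 7.11 in gl3 egl3 and 6.24 in wild type. Its values spanned 1.22 (log2) over the 4 arrays, with gl3 egl3 alone well above the rest and gl1 the lowest. TRM26 was at 6.38 in gl1, 7.01 in ttg1, 6.20 in gl3 egl3 and 6.89 in wild type, so ttg1 resembled wild type and the other mutants lay lower.

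Among the 9 TRM genes below the level filter, TRM34 (AT3G24630) was at 5.02 in gl1, 4.86 in ttg1, 3.70 in gl3 egl3 and 5.11 in wild type. As with IQD24, only the gl3 egl3 array stood apart, by -1.40 (log2), or 2.65-fold below wild type. That difference was -0.17 as deposited and -1.05 with cyclic loess. TRM31 (AT5G58630) was raised in the same array, at 4.66 in gl1, 4.79 in ttg1, 5.53 in gl3 egl3 and 4.57 in wild type.

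TRM22 (AT1G67040) was at 5.66 in gl1, 5.43 in ttg1, 5.87 in gl3 egl3 and 5.07 in wild type. TRM24 (AT5G51850) was at 4.001 in gl1, 4.29 in ttg1, 4.06 in gl3 egl3 and 3.59 in wild type. Both had all 3 mutants above wild type, with mean differences of 0.59 ± 0.22 and 0.53 ± 0.15 (log2, SD, n = 3 mutants). TRM33 was nearly flat, with a range of 0.06 over the 4 arrays. TRM15, TRM18, TRM23 and TRM25 had mean differences of -0.23, -0.22, -0.17 and 0.12.

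TRM82, named for a tRNA modification protein whose namesake in budding yeast is a WD40 subunit of a tRNA methyltransferase, was at 6.40 in gl1, 5.92 in ttg1, 6.24 in gl3 egl3 and 6.07 in wild type. Its mean difference was 0.12 ± 0.25 (log2, SD, n = 3 mutants), and it was not 2-fold apart in any mutant.

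**Figure D2:**
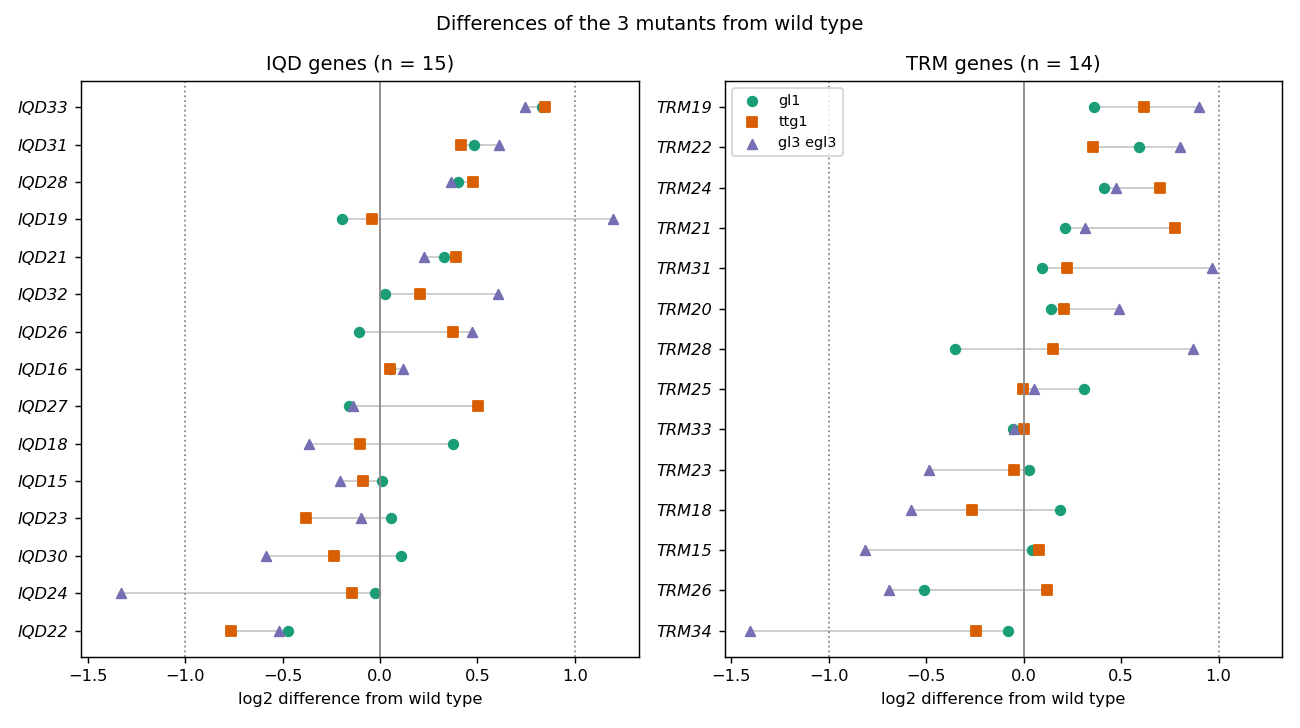
Log2 difference of each mutant from wild type (horizontal axis, quantile normalized) for 15 IQD genes (left) and 14 TRM genes (right), 1 point per mutant, with dotted lines at -1 and 1 and genes ordered by mean difference. No gl1 or ttg1 point passes the dotted lines, and the 3 points that do are gl3 egl3 in IQD19, IQD24 and TRM34.

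Counted over all 29 genes, differences of 2-fold or more were few and lay in gl3 egl3. No member reached 2-fold in gl1, where 1.78% of all probe sets did, and none in ttg1, where 3.68% did. In gl3 egl3 1 member was 2-fold higher (IQD19), where 6.31% of all probe sets were, and 2 were 2-fold lower (IQD24 and TRM34), where 5.9% were. In either direction that is 3 of 29, where 12.2% of all probe sets were 2-fold apart. The share among members was near that background. With 1 array per genotype these are differences between single arrays, with no replicate check.

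Directions were then counted at any size of difference. All 3 mutants lay above wild type for 12 of the 29 members, 6 IQD and 6 TRM, where 24.8% of all probe sets did so. All 3 lay below for 3 members (IQD22, IQD24 and TRM34), where 24.1% did. Among the 10 members whose mean signal reached the filter level, 8 lay above wild type in all 3 mutants (IQD21, IQD28, IQD31, IQD32, IQD33, TRM19, TRM20 and TRM21) and none below in all 3. The share among probe sets of that level was 30.7% above and 25.1% below. The 3 differences share 1 wild-type array, so an error in that array would move all 3 together.

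The count of 8 of 10 was 9 as deposited, 8 with cyclic loess and 7 after subtraction of array medians, where 56.3%, 29.7% and 18.3% of probe sets of that level lay above. Over all 29 members the deposited values put 24 above wild type in all 3 mutants and 0 below, where 67.0% of all probe sets lay above. In those values the typical probe set also lay above wild type, by the medians given above.

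The median IQD difference was 0.05 for gl1, 0.05 for ttg1 and 0.12 for gl3 egl3, and the median TRM difference 0.12, 0.14 and 0.18 in the same mutants. Over all probe sets the medians were 0.005, 0.01 and -0.02. The range over the 4 arrays had a median of 0.61 for IQD genes and 0.79 for TRM genes, against 0.55 for all probe sets. Relative to the median of all probe sets under the same scaling, the deposited values gave IQD medians of 0.15, 0.18 and 0.22 and TRM medians of 0.22, 0.21 and 0.35 in gl1, ttg1 and gl3 egl3.

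**Figure D3:**
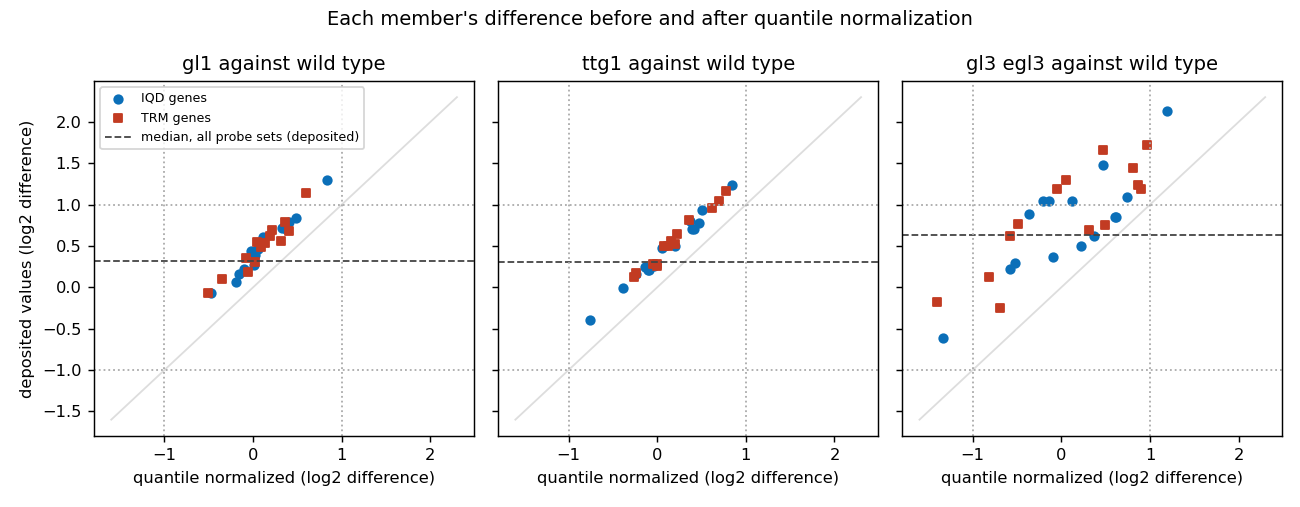
Log2 difference from wild type of 15 IQD genes (circles) and 14 TRM genes (squares) after quantile normalization (horizontal axis) and in the deposited values (vertical axis), 1 panel per mutant, with dotted lines at -1 and 1, a grey line of equality and a dashed line at the deposited median of all probe sets. All 29 members sit above the line of equality in each panel, and the dashed line is highest in gl3 egl3, at 0.63.

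As a class, the 3 mutants were compared with wild type by limma, with the lone wild-type array assumed to vary like the mutants. None of the 12 tested members was called at an adjusted p of 0.05, and neither was any of the 12601 probe sets (0.0%), where 643, or 5.1%, had an unadjusted p under 0.05. IQD33 was the 1 member among those 643. A further limma fit compared the ttg1 and gl3 egl3 arrays with those of gl1 and wild type, which also divides arrays with Ler named beside them from those with no accession named. It called 53 probe sets, or 0.421%, and no member.

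In that fit TRM19 differed by 0.58 ± 0.25 (log2, SE, limma adjusted p = 0.57), TRM28 by 0.68 ± 0.31 (limma adjusted p = 0.59) and IQD24 by -0.72 ± 0.40 (limma adjusted p = 0.67). TRM28 reached the filter level only in ttg1 (6.40) and gl3 egl3 (7.11), and not in gl1 (5.89) or wild type (6.24). The filter on the highest value thus kept TRM28 through the group in which it was high, which limits how its difference can be read. TRM21 differed by 0.44 ± 0.26 and IQD32 by 0.39 ± 0.24 (limma adjusted p = 0.68 and 0.70). Several of these values rested on 1 array. Without gl3 egl3 they were 0.33 for TRM28, -0.13 for IQD24, 0.19 for IQD32 and 0.67 for TRM21. Without ttg1 they were 1.04, -1.32, 0.59 and 0.21 for the same genes. The IQD24 value without ttg1 had a limma adjusted p of 0.039, in a fit that called 707 probe sets, or 5.61%. There gl3 egl3 is a single array whose spread is taken from gl1 and wild type, and IQD24 was tested at all only through the arrays where it was high, so this call is not read as a result. Over the other settings tried, the smallest adjusted p of any member in this fit ran from 0.44 to 0.9998.

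Known partners of both families were looked up by name. Of 6 genes of the TON1 complex only TON1B is named here, at 8.03 in gl1, 7.09 in ttg1, 7.45 in gl3 egl3 and 7.45 in wild type. It was highest in gl1 and lowest in ttg1, with 0 of 1 past 2-fold. None of the 9 calmodulin genes, the 6 kinesin light chain-related genes or the 20 OVATE family genes, whose products bind TRM proteins, is named here, so these lists gave no value.

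Of 17 tubulin genes 7 are named, and all passed the level filter. None was 2-fold apart in any mutant and limma called none in either fit. TUA1, an alpha-tubulin gene, was at 6.88 in gl1, 7.04 in ttg1, 7.40 in gl3 egl3 and 6.46 in wild type, the largest mean difference of the list at 0.65 ± 0.27 (log2, SD, n = 3 mutants). TUB9, a beta-tubulin gene, lay below wild type in all 3, by -0.35 for gl1, -0.27 for ttg1 and -0.82 for gl3 egl3. The median tubulin difference was 0.23 for gl1, 0.36 for ttg1 and 0.08 for gl3 egl3.

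Of 54 listed genes for microtubule organizers and microtubule-associated proteins, 4 are named, and none was 2-fold apart or called. MAP65-6, of the family that cross-links microtubules, had the largest mean difference. It was at 7.75 in gl1, 7.72 in ttg1, 7.16 in gl3 egl3 and 7.11 in wild type. SPR1, which keeps cell expansion straight, WDL3, and AN (ANGUSTIFOLIA), which acts in trichome branching, had mean differences of 0.14, 0.23 and 0.30.

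**Figure D4:**
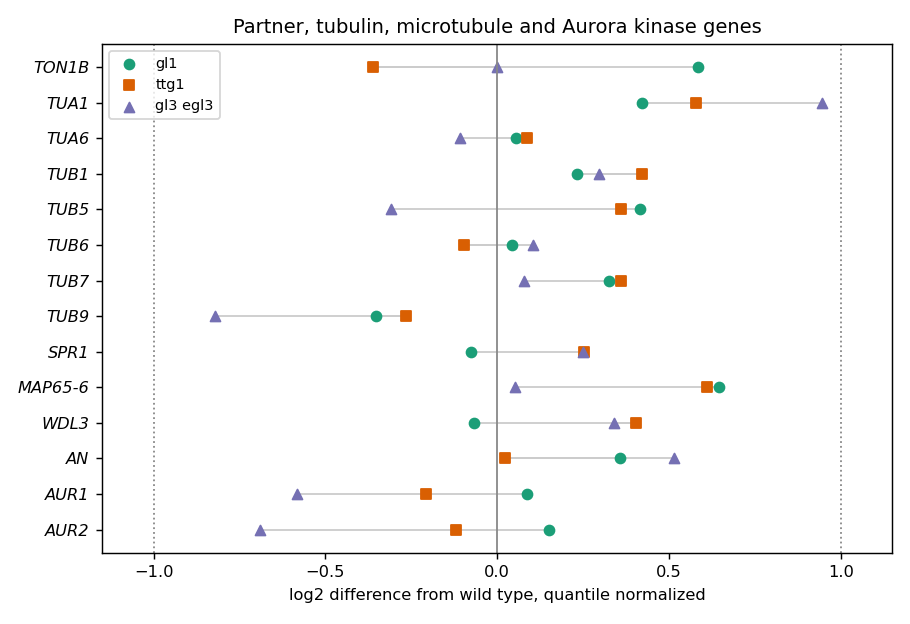
Log2 difference from wild type (horizontal axis, quantile normalized) of TON1B, 7 tubulin genes, 4 genes of microtubule organizers and associated proteins, and AUR1 and AUR2, 1 point per mutant, with dotted lines at -1 and 1. No point passes the dotted lines, TUA1 in gl3 egl3 comes closest on the right at 0.95, and both Aurora genes are lowest in gl3 egl3.

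Because TRM proteins act in division, markers of dividing cells were set beside them. Of 20 listed, AUR1 and AUR2 are named, both Aurora kinases of mitosis. AUR1 differed from wild type by 0.09 for gl1, -0.21 for ttg1 and -0.58 for gl3 egl3, and AUR2 by 0.15, -0.12 and -0.69. Both were lowest in gl3 egl3. Of the tested members IQD24 and TRM26 were also lowest in that array, while IQD31, IQD32, TRM19, TRM20 and TRM28 were highest in it. Members below the level filter went both ways there. IQD15, IQD18, IQD30, TRM15, TRM18, TRM23 and TRM34 were lowest in gl3 egl3, and IQD16, IQD19, IQD26, TRM22 and TRM31 were highest. The part of dividing cells in the differences of the members was not tested.

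Of 13 touch and wound genes 3 are named, and all 3 lay below wild type in every mutant. So did IQD22, IQD24 and TRM34 and 24.1% of all probe sets, while 12 members lay above. The gl1 array had 3 of these touch and wound genes 2-fold lower, the gl3 egl3 array 2 and the ttg1 array 1. Of all 22746 probe sets, 257 were 2-fold lower in gl1, 1341 in gl3 egl3 and 545 in ttg1. In either direction 1.78%, 12.2% and 3.68% were 2-fold apart in these arrays. These differences too share the 1 wild-type array. STZ, a zinc-finger factor gene, was at 7.24 in gl1, 8.27 in ttg1, 8.22 in gl3 egl3 and 9.74 in wild type. CML37 and CML38, calmodulin-like genes, had mean differences of -0.83 and -1.14. Of 10 root markers 3 are named, and only PYK10, a root beta-glucosidase gene, passed the level filter. It was at 11.34 in gl1, 11.18 in ttg1, 10.91 in gl3 egl3 and 11.18 in wild type. That is well above the filter level, though the labels give only green parts for gl1, ttg1 and wild type. Its differences were 0.16 for gl1, -0.0032 for ttg1 and -0.27 for gl3 egl3. The low-signal root hair expansin genes differed by -0.23, -1.06 and -1.44 (EXPA18) and by -0.09, -0.0057 and 0.036 (EXPA7). FAMA, of guard cells, lay below wild type by -0.59 for gl1, -0.88 for ttg1 and -0.69 for gl3 egl3, the only one of 8 guard cell markers named. Of 20 trichome genes 4 are named. TRY, an inhibitor of trichome fate, differed by -0.60 for gl1, 0.12 for ttg1 and 2.81 for gl3 egl3, and SIM, a cell cycle inhibitor, by -0.56, -0.35 and 0.09. MYC1 and GIS, below the level filter, stayed within 0.41 and 0.23 of wild type. The part of these cell types and responses in the member differences was not tested.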

How the data were processed

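The authors deposited log2 signals, with a single value for each probe set on each array. Per the submitters' processing notes RMA made them. For its version and settings, and for how columns were scaled, details were not given in the sources used here. Of 22810 probe sets 64 controls were left out. Values were quantile normalized with limma 3.58.1 in R 4.3.3, as the columns did not share one distribution. Probe sets were named through the platform annotation, updated by Entrez number to RefSeq TAIR10.1: 13513 name 1 gene, 13436 matched, and all 30 members matched. A difference of 1 (log2) was the size rule. Both tests were limma linear models with moderated variances, adjusted by Benjamini-Hochberg over 12601 probe sets, and were run on simulated data. The simulated arrays all had the same variance for a given probe set. The simulation therefore could not check whether the wild-type column varies like the mutants. The labels do not say whether plants were grown separately. With 1 array per genotype, the p-values rest on the spread between arrays of different genotypes put in the same group. That spread can hold genotype, accession and technical differences, which cannot be told apart, and it is not a spread between replicates. The number of arrays limits the precision. Full values went to members 2-fold apart, with the 4 largest ranges or the 3 smallest p-values per family and fit. Those of IQD16, IQD18, IQD21, IQD23, TRM22, TRM24 and TRM26, outside this rule, were added after values were seen. Members and lists were chosen with earlier results of these data known. Alternatives were other scalings, filters, variance models, a 1.5-fold rule and leaving out each array.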

Additional observations from a re-analysis of the deposited data

How the results depend on the processing

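No paired analysis was possible because each genotype has 1 array and the labels give no replicate numbers. Each member has 1 probe set, so averaging probe sets gave the same values. The fit of 3 mutants against wild type called 0 probe sets in every setting tried. The fit of ttg1 and gl3 egl3 against gl1 and wild type called 53, which became 136 in the deposited values, 104 after cyclic loess, 125 with a trended robust variance and 0 without the level filter. Leaving out 1 array gave 0 to 707 calls, with none without gl1 or wild type. Members 2-fold apart numbered 2 for gl1, 3 for ttg1 and 13 for gl3 egl3 in the deposited values, where 4.68%, 6.49% and 34.6% of all probe sets were. A 1.5-fold rule gave 2, 5 and 12 (9.02%, 13.2% and 30.3%). In gl3 egl3 the count was 5 after subtraction of array medians (18.4%) and 1 of 12 among members past the level filter, where 14.0% of such probe sets were 2-fold apart. Counting TRM82 with its namesakes, a choice made after seeing the data, altered none of these 3 counts of 0, 0 and 3.

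The deposited values moved the IQD median to 0.47 for gl1, 0.48 for ttg1 and 0.85 for gl3 egl3, and the TRM median to 0.54, 0.51 and 0.98. Subtraction of array medians moved the IQD median to -0.0037 in gl1 and 0.40 in gl3 egl3, and the TRM median to 0.065 and 0.53. Cyclic loess moved the IQD median to 0.092 in ttg1 and 0.21 in gl3 egl3. The cause was not tested.

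Of 215 values of single tested members under the alternatives, 201 kept direction and stayed uncalled, 1 became called (IQD24 without ttg1, above) and 13 turned direction, none of them called. Values of TRM82, which also passed the level filter, are included among these 215. For the 3 mutants together, the deposited values turned IQD23 to 0.30, IQD24 to 0.025 and TRM26 to 0.062. Leaving out 1 array each gave TRM28 values of -0.10 (without gl3 egl3) to 0.51. For ttg1 and gl3 egl3, the deposited values turned TRM26 to 0.16 and TRM82 to 0.022, and cyclic loess turned TRM26 to 0.0033. Leaving out 1 array each gave -0.43 to 0.38 for TRM26, -0.32 to 0.0087 for TRM82, -0.020 to 0.31 for IQD21 and -0.037 to 0.79 for IQD33, the last pair below 0 without wild type only.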
